A study of Rattus norvegicus with 12 samples.

Results

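The genes described are the 10 that encode the transforming growth factor beta (TGF-beta) ligands (Tgfb1, Tgfb2, Tgfb3), their receptors and co-receptors (Tgfbr1, Tgfbr2, Tgfbr3, Eng), the decoy receptor Bambi and the latency proteins Ltbp1 and Ltbp4. They were taken by name, not by their values, from the 14213 genes that the array's probe sets name. A probe set is the group of short probes that reads 1 transcript. Of the 10 genes, 9 had at least 1 probe set that names them alone, 12 probe sets in all, and no probe set named Tgfbr2 here. For 8 genes a probe set was bright enough to be tested, and these are called the 8 tested members. Each is the brightest probe set of its gene. The other 4 probe sets were among the dimmest 40% of all, which were left out, with a geometric mean signal under 70.9 over the arrays. Among them was the only probe set of Tgfb1.

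TGF-beta is secreted in a latent complex, in which each ligand stays bound to its own propeptide and, through it, to a latent TGF-beta binding protein that tethers the complex to the extracellular matrix. Once freed, the ligand binds the type II receptor, which recruits and phosphorylates the type I receptor. That receptor then phosphorylates SMAD proteins, which enter the nucleus and change transcription. In the kidney the pathway is best known for driving matrix production, and it has long been studied in diabetic kidney disease.

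Renal cortex of male rats was compared in 4 groups of 3 arrays. Diabetic rats of 10 weeks had been given streptozocin, which kills pancreatic beta cells, intravenously at 65 mg/kg when 4 weeks old. Their nondiabetic counterparts of 10 weeks had been given vehicle at that age. Diabetic rats of 20 weeks had been given the same dose when 14 weeks old, and nondiabetic rats of 20 weeks vehicle. A pellet followed 3 days after the injection, with insulin palmitate in diabetic and palmitate vehicle in nondiabetic rats, and cortex was taken 6 weeks into the protocol. Glucose in diabetic rats is labelled as 350 to 450 mg/dl. All groups were male littermates with free access to food and water. No group had streptozocin without diabetes, so the effects of diabetes, the toxin and insulin cannot be told apart. The series description states that diabetes had age-specific effects on 1760 transcripts and that 89 genes of TGF-beta signalling were then examined.

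The arrays correlated with each other at 0.941 to 0.976, and no pair was identical. A pair of arrays called for care. The label of 10-week diabetic replicate 1 names a vehicle pellet. In 20-week nondiabetic replicate 1 the 3' over 5' ratio of the Gapdh control probe sets, a measure of RNA integrity that goes up with degradation, was 2.09, the highest of all arrays. On the other arrays it was 1.6 to 1.75 in diabetic and 1.42 and 1.54 in nondiabetic rats of 20 weeks, and 1.44 to 1.5 in diabetic and 1.41 to 1.46 in nondiabetic rats of 10 weeks. The beta-actin ratio was 11.2 on that array, but 11.4 in 20-week diabetic replicate 2 and 10 in replicate 3. The 10-week diabetic replicate 1 and the 20-week nondiabetic replicate 1 are called the 2 doubted arrays. Leaving them out thus does not take out every array with a high ratio. The tissue label was set against marker genes. All 7 proximal tubule markers passed the limit, with a summed signal of 81338 to 96232 over all arrays, and none was called in any comparison. The liver markers (3 of 3) and most fat markers (3 of 4) lay under the limit.

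None of the 8 tested members passed limma's test, at an adjusted p under 0.05 by Benjamini-Hochberg, in any of 5 comparisons. In diabetic against nondiabetic rats 0 of 8 were called at 10 weeks, where 0.306% of all 18625 probe sets tested were called. At 20 weeks it was 0 of 8, against 2.84% of all. For the average of the 10-week and 20-week differences, here "over both ages", it was 0 of 8 against 4.47%. The interaction, which is the 10-week difference minus the 20-week difference, and age in nondiabetic rats (20 minus 10 weeks) gave 0 of 8 members and 0% of all probe sets. At an unadjusted limma p under 0.05 the members counted 0 of 8 at 10 weeks (10.9% of all), 2 at 20 weeks (16.8%), 2 over both ages (17.9%), 1 in the interaction (7.95%) and 0 for age (8.61%). The 2 were Tgfb3 and Bambi, both lower in diabetic rats, where 8.33% of all probe sets were lower at such a p at 20 weeks and 9.33% over both ages. The 1 in the interaction was Ltbp4.

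Separation of the groups, array by array, was seen for 4 members. At 20 weeks every diabetic array lay below every nondiabetic array for Tgfb3 and Bambi, 2 of 8 members, where 10.9% of all probe sets were separated in that direction and 20.9% in either. At 10 weeks every diabetic array lay above every nondiabetic array for Ltbp1 and Ltbp4, 2 of 8 members, where 7.47% of all were separated in that direction and 17.0% in either. For age, 0 of 8 members were separated between nondiabetic rats of 20 and of 10 weeks, against 12.1% of all probe sets.

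For these 4 members the 250 bases upstream of the annotated start are given, because theirs are the values the results turn on. They come from RefSeq on the rat build GRCr8, 5′ to 3′ on the coding strand, which is the minus strand in each case. The Tgfb3 window is chr6:111456947-111457196, that of Bambi chr17:58821004-58821253, that of Ltbp1 chr6:26177302-26177551 and that of Ltbp4 chr1:91759808-91760057. Capitals mark matches, on either strand, to a SMAD-binding sequence, the cyclic AMP response element, the GC box or a TATA box, whose letters are spelled out after the windows.
Tgfb3: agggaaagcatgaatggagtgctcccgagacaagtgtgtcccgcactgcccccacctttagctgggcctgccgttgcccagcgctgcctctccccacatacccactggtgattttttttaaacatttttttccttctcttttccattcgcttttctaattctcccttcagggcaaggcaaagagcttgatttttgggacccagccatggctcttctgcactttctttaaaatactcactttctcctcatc
Bambi: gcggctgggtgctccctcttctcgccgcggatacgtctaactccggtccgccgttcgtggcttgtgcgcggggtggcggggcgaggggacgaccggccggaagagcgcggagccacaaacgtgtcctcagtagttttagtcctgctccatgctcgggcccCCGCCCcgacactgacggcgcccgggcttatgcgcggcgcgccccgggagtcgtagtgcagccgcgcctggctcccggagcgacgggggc
Ltbp1: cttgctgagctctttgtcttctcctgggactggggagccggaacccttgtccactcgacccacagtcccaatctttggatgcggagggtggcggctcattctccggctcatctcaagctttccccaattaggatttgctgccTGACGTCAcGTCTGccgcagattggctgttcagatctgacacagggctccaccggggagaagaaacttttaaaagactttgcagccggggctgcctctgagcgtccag
Ltbp4: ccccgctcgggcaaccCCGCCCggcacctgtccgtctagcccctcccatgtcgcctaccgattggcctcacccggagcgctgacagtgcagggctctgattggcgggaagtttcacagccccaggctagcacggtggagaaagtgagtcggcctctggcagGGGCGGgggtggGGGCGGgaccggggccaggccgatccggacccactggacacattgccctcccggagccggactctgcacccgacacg

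Windows of all 10 members were in the table. The SMAD-binding sequence CAGAC was found in 2 of them (Eng and Ltbp1) and in 42.9% of the 33469 windows of the table. The response element, TGACGTCA, was found in Ltbp1 alone among the members and in 1.59% of all windows. The GC box, GGGCGG, was found in 5 of 10 members (Bambi, Ltbp4, Tgfbr1, Tgfbr2 and Tgfbr3) and in 30.5% of all, and the TATA box, TATAAA, in 0 of 10 and in 12.9% of all. In the windows no match overlapped one of another motif. The Tgfb3 window held none of the 4 motifs. Its GC content was 48.8%, against a median of 51.2% over all windows, while those of Bambi and Ltbp4 had 72.4% and 70.4% and that of Ltbp1 56.8%. A match of letters is a description of the window and says nothing of binding in these kidneys.

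**Figure D1:**
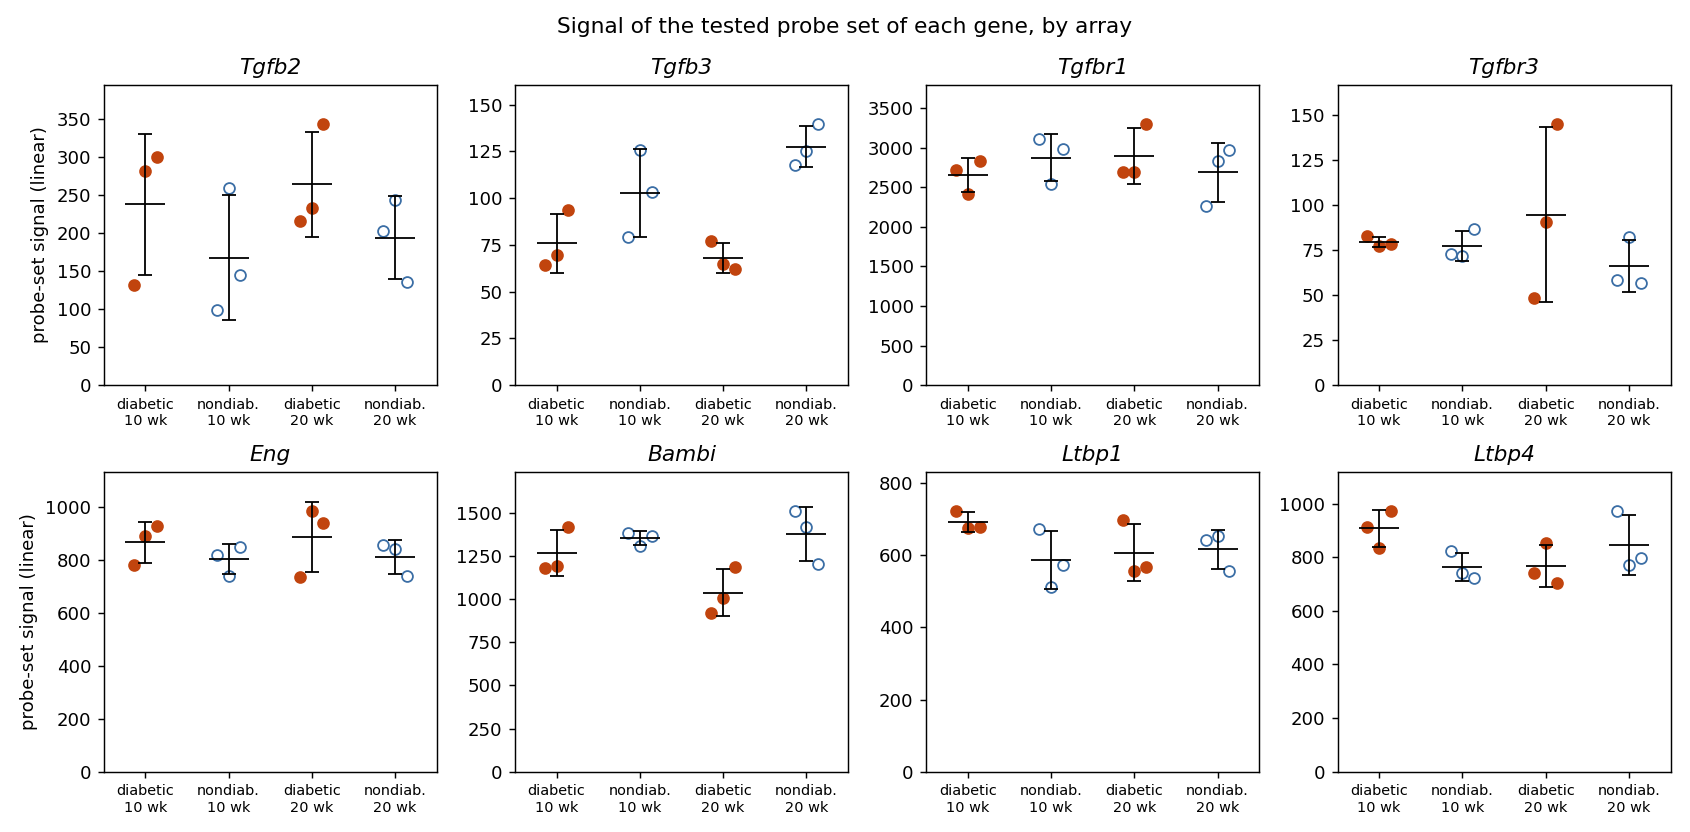
Signal (linear, intensity as deposited) of the 8 tested members on each array, 1 panel per gene, with diabetic left of nondiabetic arrays at each age. Points are arrays, horizontal bars are group means and whiskers are the SD. At 20 weeks the 3 diabetic arrays of Tgfb3 and of Bambi lie below the 3 nondiabetic ones, and at 10 weeks those of Ltbp1 and Ltbp4 lie above, while the groups overlap in the other panels.

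Among the ligands, Tgfb3 had the widest separation. TGF-beta 3 is the isoform best known from palate fusion and wound repair. Its signals were 76.8, 65.0 and 62.1 in diabetic rats of 20 weeks, against 117.8, 125.2 and 139.6 in nondiabetic rats of that age. The highest diabetic array thus lay well below the lowest nondiabetic array. At 10 weeks they were 64.4, 69.4 and 93.7 in diabetic rats, against 79.0, 125.9 and 103.4 in nondiabetic rats, and here the groups overlap. The difference at 20 weeks was -0.91 ± 0.27 on the log2 scale (SE of the model), or 0.53-fold with a 95% interval of 0.36 to 0.79, and limma's adjusted p was 0.0961. At 10 weeks it was -0.43 ± 0.27 (adjusted p = 0.595). Over both ages it was -0.67 ± 0.19, or 0.63-fold with an interval of 0.47 to 0.83 (adjusted p = 0.0677). This p ranked 1011 of 18625.

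Group means of Tgfb3 ran, from low to high, 67.9 ± 7.8 in diabetic rats of 20 weeks (SD, n = 3 here and below), 75.8 ± 15.7 in diabetic rats of 10 weeks, 102.8 ± 23.5 in nondiabetic rats of 10 weeks and 127.5 ± 11.1 in nondiabetic rats of 20 weeks. The 2 diabetic groups overlap with each other, as do the 2 nondiabetic groups. The lowest of these means lies just under the limit for dim probe sets, so the size of the difference is uncertain. The interaction was 0.48 ± 0.38 (adjusted p = 0.774), so a different response at the 2 ages was not detected. Without the 2 doubted arrays the difference was -0.97 ± 0.31 at 20 weeks (adjusted p = 0.16) and -0.65 ± 0.22 over both ages (adjusted p = 0.171). The estimate moved little and the adjusted p rose. When the model's variance was moderated without an intensity trend, Tgfb3 passed over both ages (-0.67 ± 0.13, adjusted p = 0.0293). That was the only setting tried in which any member passed.

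Tgfb2 encodes TGF-beta 2, the isoform whose loss in mice causes kidney and heart defects. Its brighter probe set gave 131.5, 281.6 and 300.1 in diabetic rats of 10 weeks, against 98.6, 258.7 and 145 in nondiabetic rats. At 20 weeks it gave 216, 232.6 and 343 in diabetic rats, against 202.7, 243 and 136 in nondiabetic rats. Within every group the arrays spread widely, and the groups overlap at both ages. The mean difference was 0.53 ± 0.39 at 10 weeks (adjusted p = 0.665), 0.45 ± 0.39 at 20 weeks (adjusted p = 0.608) and 0.49 ± 0.27 over both ages, or 1.41-fold with an interval of 0.93 to 2.12 (adjusted p = 0.385). The interval thus reaches from slightly lower to more than a doubling. Single arrays moved these values. At 10 weeks it was 0.91 without diabetic replicate 1, 0.90 without nondiabetic replicate 2 and 0.20 without nondiabetic replicate 1, and 0.32 without diabetic replicate 3. At 20 weeks it ran from 0.22 without nondiabetic replicate 3 to 0.64 without nondiabetic replicate 2, with 0.25 without diabetic replicate 3. The dimmer Tgfb2 probe set, under the limit, gave 0.54 ± 0.47 over both ages when it was included (adjusted p = 0.699). On both probe sets 10-week nondiabetic replicate 1 was the lowest array of all and 20-week diabetic replicate 3 the highest.

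Tgfb1 encodes TGF-beta 1, the isoform studied most in renal fibrosis. Its probe set had a geometric mean signal of 33.3, under the limit, and was not part of the main test. The signals were 40.2, 9.42 and 12.9 in diabetic rats of 10 weeks, against 157.1, 17.2 and 41.7 in nondiabetic rats. At 20 weeks they were 14.8, 76.9 and 103.5 in diabetic rats, against 23.2, 73.0 and 16.8 in nondiabetic rats. The coefficient of variation within the 4 groups was 69.9% to 103.8%, and the groups overlap at both ages. With the dim probe sets included, limma gave -1.51 ± 0.96 at 10 weeks (95% interval -3.58 to 0.56, adjusted p = 0.694) and 0.69 ± 0.96 at 20 weeks (interval -1.38 to 2.75, adjusted p = 0.849). Over both ages it was 0.75-fold with an interval of 0.27 to 2.07 (adjusted p = 0.871). This probe set therefore sets no narrow bound on Tgfb1 in either direction. The genes whose log2 signal correlated most with it over the 12 arrays were Tc2n (r = 0.91), Septin2 (0.85) and Bbs7 (0.81). These are a description, with a dim probe set on 1 side, and they share the array's scaling.

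**Figure D2:**
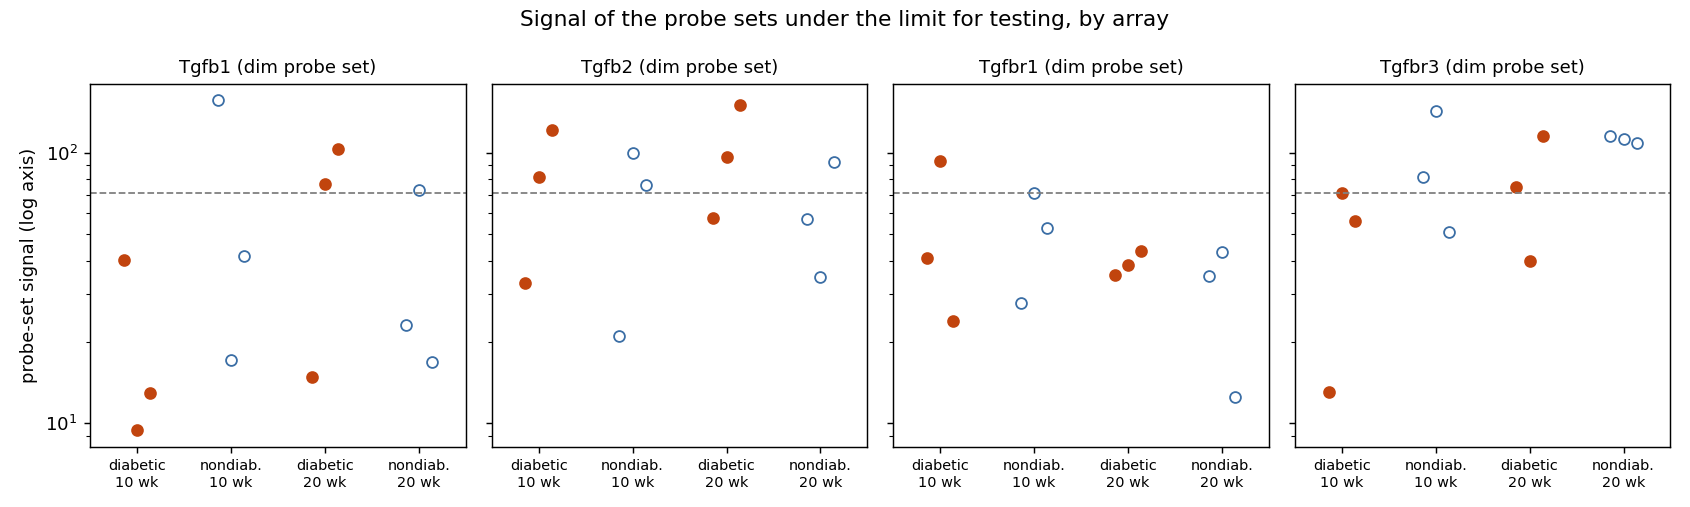
Signal, on a log axis, of the 4 member probe sets under the limit for dim probe sets on each array. Diabetic arrays are left of nondiabetic arrays at each age. Points are arrays, and the dashed line marks the limit of 70.9. Tgfb1 ranges from 9.42 to 157.1 and its groups overlap at both ages.

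Of the receptors, Tgfbr1, the type I receptor kinase, had a bright probe set with a geometric mean signal of 2766. It gave 2723, 2418 and 2831 in diabetic rats of 10 weeks, against 3107, 2538 and 2981 in nondiabetic rats. At 20 weeks it gave 2689, 2691 and 3301 in diabetic rats, against 2267, 2836 and 2975 in nondiabetic rats. The groups overlap at both ages. The difference was -0.11 ± 0.12 at 10 weeks (adjusted p = 0.794), 0.11 ± 0.12 at 20 weeks (adjusted p = 0.721) and -0.00 ± 0.09 over both ages, with a 95% interval of 0.88-fold to 1.14-fold (adjusted p = 0.995). The interval holds the differences compatible with these arrays, and it is not a limit of detection. The dimmer Tgfbr1 probe set gave 0.24 ± 0.46 over both ages when included (adjusted p = 0.888).

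Endoglin, encoded by Eng, is a co-receptor that is abundant on endothelial cells. Eng signals were 780.4, 888 and 928 in diabetic rats of 10 weeks, against 818, 740.0 and 849 in nondiabetic rats. At 20 weeks they were 735, 984 and 937 in diabetic rats, against 854, 839 and 737 in nondiabetic rats. The groups overlap at both ages. The difference was 0.11 ± 0.13 at 10 weeks (adjusted p = 0.805) and 0.12 ± 0.13 at 20 weeks (adjusted p = 0.687). Over both ages it was 1.08-fold with an interval of 0.95 to 1.24 (adjusted p = 0.561). The estimates at the 2 ages are close to each other, with an interaction of -0.01 ± 0.18 (adjusted p = 0.99).

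Tgfbr3 encodes betaglycan, a co-receptor that presents ligand, TGF-beta 2 above all, to the signalling receptors. Its 2 probe sets stood on either side of the limit, with geometric means of 76.4 and 70.6. The brighter one gave 82.8, 77.4 and 78.2 in diabetic rats of 10 weeks, against 72.9, 71.8 and 86.8 in nondiabetic rats. At 20 weeks it gave 48.4, 90.7 and 145 in diabetic rats, against 58.6, 82.5 and 56.8 in nondiabetic rats. The 20-week diabetic arrays span both the lowest and the highest value of all arrays. Its difference was 0.40 ± 0.37 at 20 weeks (adjusted p = 0.635), and it was 0.82 without 20-week diabetic replicate 1 and 0.03 without replicate 3 of that group. Over both ages it was 0.23 ± 0.26 (adjusted p = 0.721), and 0.43 and 0.04 without those same arrays. The dimmer probe set, when included, gave -0.93 ± 0.44 (adjusted p = 0.395). The 2 probe sets thus differ in sign, and neither passed.

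Bambi is a membrane protein that resembles a type I receptor but has no kinase domain, and it dampens TGF-beta signalling. At 20 weeks its signals were 916, 1007 and 1185 in diabetic rats, against 1509.8, 1417 and 1204 in nondiabetic rats. The highest diabetic array lay only slightly under the lowest nondiabetic one. At 10 weeks the signals were 1181, 1192 and 1419 in diabetic rats, against 1382, 1308 and 1366 in nondiabetic rats, and the groups overlap. The difference was -0.41 ± 0.12 at 20 weeks, or 0.75-fold with an interval of 0.63 to 0.90 (adjusted p = 0.0904). It was -0.10 ± 0.12 at 10 weeks (adjusted p = 0.805) and -0.26 ± 0.08 over both ages, or 0.84-fold with an interval of 0.74 to 0.95 (adjusted p = 0.116).

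Bambi was lowest in diabetic rats of 20 weeks, at 1036 ± 136.8. It averaged 1264 ± 134 in diabetic rats of 10 weeks, 1352 ± 38.7 in nondiabetic rats of 10 weeks and 1377 ± 156.9 in nondiabetic rats of 20 weeks, and these 3 groups overlap with one another. The interaction was 0.31 ± 0.17 (adjusted p = 0.663), and a difference between the ages was not detected. Without the 2 doubted arrays the 20-week difference was -0.34 ± 0.13 (adjusted p = 0.231) and that over both ages -0.20 ± 0.09 (adjusted p = 0.331). The array left out at 20 weeks holds the highest nondiabetic value.

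At 20 weeks, where Tgfb3 and Bambi were separated, the summed signals of 4 marker lists were separated too, and only these are described. Those of proximal tubule, mesangium and fibroblast, smooth muscle, thick ascending limb, inner medulla, fat and liver overlapped. Sums of linear signal weigh the brightest markers most. Of all single probe sets, 20.9% were separated at that age in either direction. At an adjusted p under 0.05 by limma, 2.84% were called at that age and 4.47% over both ages. For endothelium, 8 of 9 markers had a probe set, and their summed signal was 9562 to 10167 in diabetic rats of 20 weeks, against 10741 to 12158 in nondiabetic rats, with no overlap. By value 7 of the 8 were lower, and 1 passed (Vwf, the clotting factor of endothelium, -1.99 ± 0.49, adjusted p = 0.0482). That call was lost in 14 of 23 alternatives (adjusted p up to 0.165), and with single arrays left out it was kept only without replicate 1 of either 10-week group or 20-week nondiabetic replicate 3. Over both ages Vwf passed as well (-1.78 ± 0.34, adjusted p = 0.0114), and that call was kept in all 22 alternatives. By value 5 endothelial markers were lower over both ages and 3 higher, and no other passed. For podocytes, the filter cells of the glomerulus, 6 of 7 markers had a probe set, and the sum was 4846 to 5367.5 in diabetic rats of 20 weeks, against 5847 to 6366.5 in nondiabetic rats, again with no overlap. All 6 were lower by value and 0 passed at that age. Over both ages all 6 were again lower, and Nphs1 (-0.48 ± 0.10, adjusted p = 0.0157) and Ptpro (-0.40 ± 0.10, adjusted p = 0.0339) passed. The call of Nphs1 was kept in 21 of 22 alternatives and that of Ptpro in 12 of 22. The other separated lists were higher. The 6 macrophage and leukocyte markers summed to 1836 to 2262 in diabetic rats of 20 weeks, against 1435 to 1806 in nondiabetic rats, with no overlap. The 4 of them tested were all at or above 0 by value (median 0.43) and 0 passed at that age. The 3 collecting duct markers summed to 7991 to 9460 in diabetic rats of 20 weeks, against 6794 to 7895.5 in nondiabetic rats, with no overlap. Yet 1 of the 3 was higher by value and 2 were lower, and 0 passed at that age. No marker of these 4 lists was at 0 on any array, and Cd163 and Cd3e lay under the limit for dim probe sets. Their part in the result was not tested, and in whole cortex fewer cells of a type and less RNA per cell cannot be told apart.

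Ltbp1, a latent TGF-beta binding protein that stores the complex in the matrix, had signals of 722, 674 and 677 in diabetic rats of 10 weeks, against 671, 512 and 572 in nondiabetic rats. The groups are apart by a narrow margin, and nondiabetic replicate 1 comes within a few units of the diabetic arrays. At 20 weeks the signals were 697, 555 and 567 in diabetic rats, against 640.6, 654 and 555 in nondiabetic rats, and the groups overlap. The difference was 0.25 ± 0.13 at 10 weeks (95% interval -0.03 to 0.53, adjusted p = 0.522) and -0.03 ± 0.13 at 20 weeks (interval -0.31 to 0.25, adjusted p = 0.949). Over both ages it was 0.11 ± 0.09 (adjusted p = 0.592).

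Ltbp4, which binds latent TGF-beta 1 and is needed for elastic fibres, had signals of 914, 836 and 972 in diabetic rats of 10 weeks, against 823.5, 743 and 723 in nondiabetic rats. The groups were separated at this age. At 20 weeks the signals were 740.1, 854 and 705 in diabetic rats, against 973, 769.5 and 795 in nondiabetic rats, where the groups overlap and nondiabetic replicate 1 is the highest array. The difference was 0.25 ± 0.12 at 10 weeks, or 1.19-fold (adjusted p = 0.481), and -0.14 ± 0.12 at 20 weeks (adjusted p = 0.61). The interaction of 0.39 ± 0.17 (95% interval 0.02 to 0.75) had the smallest p of the members in that comparison, and its adjusted p was 0.605. Without the 2 doubted arrays the interaction was 0.28 ± 0.18 (adjusted p = 0.732) and the 20-week difference -0.03. Both latency proteins were thus higher by value at 10 weeks, and the interaction of Ltbp1 was 0.28 ± 0.18 (adjusted p = 0.719).

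At 10 weeks the sums of the collecting duct and inner medulla lists were separated, and those of the other marker lists overlapped. Of all single probe sets, 17.0% were separated at that age in either direction. At an adjusted p under 0.05 by limma, 0.306% were called at 10 weeks, 2.84% at 20 weeks and 4.47% over both ages. The summed signal of the 3 collecting duct markers was 9147 to 12194 in diabetic rats, against 6997 to 8528 in nondiabetic rats, with no overlap, and Aqp2, the water channel of the collecting duct, passed (0.68 ± 0.12, adjusted p = 0.0433). That call was lost in 17 of 23 alternatives (adjusted p up to 0.195), and with single arrays left out it was kept only without 20-week diabetic replicate 1 or 20-week nondiabetic replicate 2. Over both ages Aqp2 passed as well (0.55 ± 0.09, adjusted p = 0.00391), and that call was kept in all 22 alternatives. The 2 other collecting duct markers were not called over both ages. The 3 inner medulla markers summed to 1163.5 to 2155 in diabetic rats, against 2160 to 3821.5 in nondiabetic rats. These sums were apart by a narrow margin, and the list was split. Ptgds, a prostaglandin synthase, was at -1.35 ± 0.40 (adjusted p = 0.226) and the urea transporter Slc14a2 at -0.72 ± 0.43 (adjusted p = 0.583), while the water channel Aqp4 was at 0.91 ± 0.33 (adjusted p = 0.321), so none passed at 10 weeks. Aqp4 passed at 20 weeks (1.38 ± 0.33, adjusted p = 0.0452, lost in 12 of 23 alternatives). Over both ages Aqp4 (1.14 ± 0.23, adjusted p = 0.0159, kept in all 22) and Ptgds (-1.23 ± 0.28, adjusted p = 0.0281, lost in 9 of 22) passed, in opposite directions, and Slc14a2 did not. None of these markers was at 0 on any array, and their part in the Ltbp1 and Ltbp4 values was not tested.

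**Figure D3:**
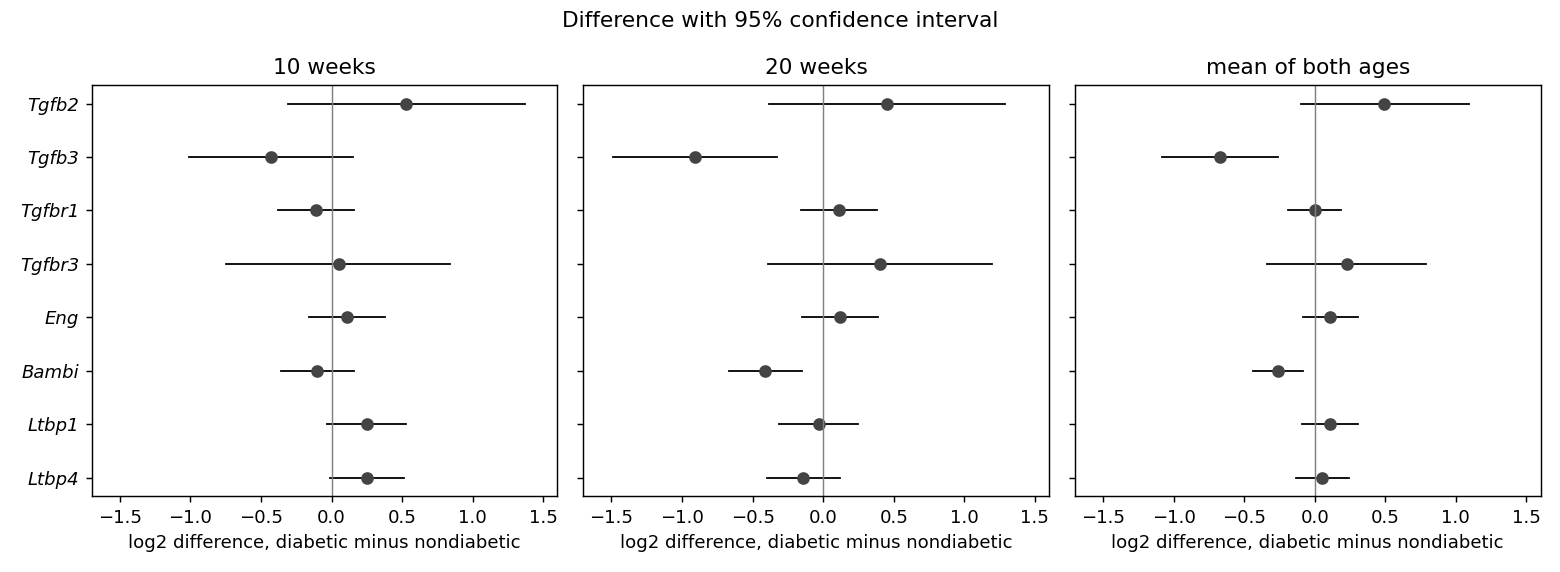
Log2 difference (diabetic minus nondiabetic) of each tested member at 10 weeks and at 20 weeks, with 95% confidence intervals of the limma fit and a line at 0. The 20-week intervals of Tgfb3 (-1.49 to -0.33) and Bambi (-0.67 to -0.15) leave out 0 before adjustment, and neither passed after it.

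Set beside all probe sets, the members had a larger median size of difference in the diabetes comparisons, with no test of that excess. Their median difference was 0.08 at 10 weeks (-0.021 over all), 0.04 at 20 weeks (-0.004 over all), 0.08 over both ages (-0.010 over all), and 0.18 in the interaction (-0.004 over all). By size alone the median was 0.18 at 10 weeks (0.16 over all), 0.27 at 20 weeks (0.18 over all), 0.17 over both ages (0.13 over all) and 0.30 in the interaction (0.20 over all). By value 5 members were higher and 3 lower in diabetic rats at 10 weeks, and 4 and 4 at 20 weeks. The members did not share a direction.

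**Figure D4:**
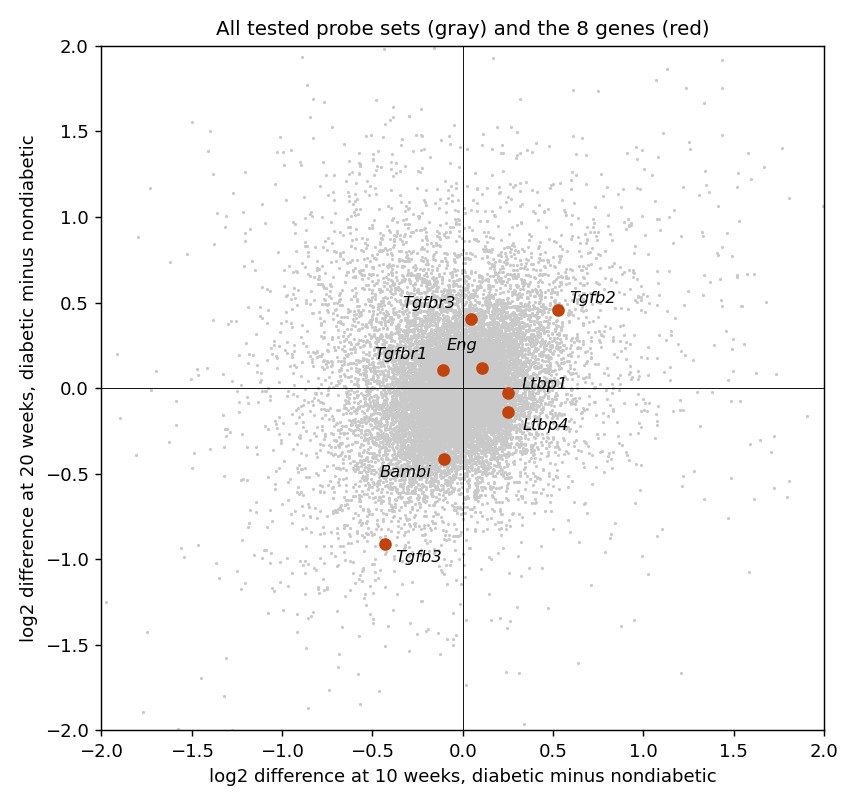
Log2 difference (diabetic minus nondiabetic) at 10 weeks, horizontal axis, against that at 20 weeks, vertical axis, for all tested probe sets in grey and the 8 members labelled (48 probe sets lie outside the axes). Tgfb3 stands lowest of the members at both ages and Tgfb2 is the highest member at both.

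For age, no member passed. Between nondiabetic rats of 20 and of 10 weeks the largest estimate by size was that of Tgfb3, 0.33 ± 0.27 (adjusted p = 0.735), followed by Tgfb2 at 0.29 ± 0.39 (adjusted p = 0.855) and Tgfbr3 at -0.24 ± 0.37 (adjusted p = 0.869). The others lay between -0.10 ± 0.12 for Tgfbr1 and 0.14 ± 0.12 for Ltbp4. The median size was 0.12, against 0.15 over all probe sets.

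Downstream and around these genes, 3 lists from general knowledge were counted, with 1 probe set per gene. They were chosen with earlier results of these data known, so their counts beside the shares over all probe sets are a description and no test. Of the proteins that store, activate or bind latent TGF-beta, 16 genes were tested of 24 listed, and 0 passed in any of the 5 comparisons. Of all probe sets tested, 0.306% were called at 10 weeks, 2.84% at 20 weeks, 4.47% over both ages and 0% in the interaction and for age. The smallest p-values over both ages were those of Plau, the urokinase that helps activate plasmin (0.20 ± 0.08, adjusted p = 0.233), Dcn, the matrix proteoglycan decorin that binds TGF-beta (0.48 ± 0.24, adjusted p = 0.319), Lrrc32, which holds latent TGF-beta on cell surfaces (0.24 ± 0.14, adjusted p = 0.405), and Nrros, which does so on macrophages (0.25 ± 0.15, adjusted p = 0.429). The list's median was 0.10 at 10 weeks and 0.08 at 20 weeks.

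Of the SMADs and their regulators, 18 were tested of 20 listed. Skil, a corepressor of SMADs, fell at both ages. Its difference was -0.46 ± 0.08 at 10 weeks (adjusted p = 0.0409), -0.64 ± 0.08 at 20 weeks (adjusted p = 0.00207) and -0.55 ± 0.06 over both ages (adjusted p = 0.000364). The call at 10 weeks was kept in 6 of 23 alternative settings, with an adjusted p of up to 0.194, and those at 20 weeks and over both ages in every alternative run, 23 and 22. With single arrays left out, the 10-week call was kept only without replicate 3 of the diabetic or of the nondiabetic rats of 10 weeks. No other gene of the list passed in any comparison, so 1 of 18 was called at 10 weeks, at 20 weeks and over both ages. Of all probe sets tested, 0.306%, 2.84% and 4.47% were called in these comparisons. Smad7, the inhibitory SMAD, was at -0.86 ± 0.18 at 10 weeks (adjusted p = 0.0848) and 0.04 ± 0.18 at 20 weeks (adjusted p = 0.941). Over both ages it was at -0.41 ± 0.13 (adjusted p = 0.104), and for age in nondiabetic rats at -0.83 ± 0.18 (adjusted p = 0.348). The group that stood apart was nondiabetic rats of 10 weeks. Its mean signal was 447.1, against 247.4 in diabetic rats of 10 weeks and 256.5 in diabetic and 249.9 in nondiabetic rats of 20 weeks.

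Of the genes listed as targets that TGF-beta can induce in some cells, 21 were tested of 26 listed. The list includes Id1, Id2 and Id3, and none of them was called. They were at -0.50, -0.68 and -0.63 at 10 weeks and at -0.19, 0.51 and -0.13 at 20 weeks. Of the genes called in no comparison, Tagln, Id3, Id1 and Vim had the smallest p over both ages. Tagln was at 0.81 ± 0.22 (adjusted p = 0.0591) and Vim at 0.37 ± 0.13 (adjusted p = 0.154). Id3 was at -0.38 ± 0.12 (adjusted p = 0.104) and Id1 at -0.35 ± 0.12 (adjusted p = 0.135). At 10 weeks 0 of 21 passed, where 0.306% of all probe sets did. At 20 weeks 2 of 21 rose, where 2.84% of all were called in either direction and 228 of 18625 were called higher. These were Ccn2, a matricellular growth factor (0.67 ± 0.16, adjusted p = 0.0421), and Fn1, the matrix protein fibronectin (0.73 ± 0.17, adjusted p = 0.041). Over both ages 3 of 21 rose, where 4.47% of all were called in either direction and 398 of 18625 were called higher. These were Lox, the collagen cross-linking enzyme (0.95 ± 0.20, adjusted p = 0.0165), Cdkn1a, the cell cycle inhibitor p21 (0.75 ± 0.16, adjusted p = 0.0182), and Fn1 (0.55 ± 0.12, adjusted p = 0.0227). None fell. The 20-week calls were unsteady. That of Ccn2 was lost in 12 of 23 alternatives, up to an adjusted p of 0.157, and that of Fn1 in 15 of 23, up to 0.151. With single arrays left out, Ccn2 lost it without 10-week diabetic replicates 1 or 3, any diabetic array of 20 weeks, 10-week nondiabetic replicate 2 or 20-week nondiabetic replicates 2 or 3. Fn1 kept it only without 20-week diabetic replicate 3 or 20-week nondiabetic replicate 1. Over both ages the call of Fn1 was lost in 5 of 22 alternatives (adjusted p up to 0.0566), without the intensity trend and without 10-week diabetic replicate 1, 20-week diabetic replicates 1 or 2 or 10-week nondiabetic replicate 2, while those of Lox and Cdkn1a were kept in all that were run, 21 and 22. The list's median was 0.08 at 10 weeks and 0.34 at 20 weeks, against -0.021 and -0.004 over all probe sets. The macrophage and leukocyte markers, whose 20-week sums are given with Bambi, were also higher by value in 3 of 4 over both ages (median 0.34). Of these Csf1r, the macrophage growth factor receptor, rose (0.36 ± 0.09, adjusted p = 0.0453). That call was lost in 16 of 22 alternatives (adjusted p up to 0.104), and with single arrays left out it was kept only without 20-week diabetic replicate 3. The part of these markers in the target genes was not tested. Some genes of the list also mark smooth muscle, and these targets respond to other signals as well.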

How the data were processed

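Kidney cortex RNA of 12 samples, 1 array each, was measured in 1 colour with biotin-labelled cRNA, per the labels' protocols. The deposited values are linear probe-set intensity made with GCOS, per the submitters' processing notes. For its version and the detection calls, the sources used here give nothing. The trimmed mean signal (2% at each end) was 500.2 on every array, so the deposited intensity was already scaled, and differences are relative to the other transcripts.

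Of 31099 probe sets, 57 controls were left out. Signals under 1 (424 values) were set to 1, log2 was taken, and the dimmest 40% were left out, leaving 18625. Gene symbols are those of the array annotation, brought up to date with the RefSeq gene table: 20832 probe sets named 1 gene, 436 several and 9831 none here, and 10581 genes were tested. A gene's main probe set is its brightest.

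limma 3.58.1 (R 4.3.3) fitted 4 group means to all 12 arrays (8 residual degrees of freedom), with eBayes and an intensity trend, and Benjamini-Hochberg adjustment over all 18625. Tests were two-sided, and the fit was tested on simulated data with changes in diabetic arrays alone. All members are named, and from each pathway list the called genes and, of the others, at most the 4 genes with the smallest p over both ages. Id2 is named beside Id1 and Id3, outside that rule. The members and lists were chosen with earlier results of these data known. The 10-week and 20-week comparisons share no arrays but share 1 variance estimate. The labels do not tie arrays to animals, so the p-values rest on the spread between these arrays, which may be technical. The number of arrays limits precision. The 23 alternatives were other scalings, filters and variance models, an offset of 16, array weights, the Gapdh ratio as a covariate, the replicate number as a block and arrays left out. For the called pathway and marker genes they were added after seeing the data.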

Additional observations from a re-analysis of the deposited data

How the results depend on the processing

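Over the alternatives 889 member differences were recomputed. Of these 838 kept their direction and side of the threshold, 50 reversed and 1 passed, Tgfb3 over both ages without the intensity trend, which made the count of members called 1. Of 40 member results, 27 never reversed, Tgfb3 and Bambi at 20 weeks and over both ages among them. For Tgfb3 the adjusted p ranged from 0.0552 to 0.236 at 20 weeks and from 0.0293 to 0.171 over both ages, and for Bambi from 0.0622 to 0.241 and from 0.0713 to 0.331. The cause of the reversals was not tested. Among those that reversed, Tgfbr3 in the interaction (-0.36) and Tgfb2 for age (0.29) were the largest by size. Median scaling, which moved the median of all probe sets to 0.09 at 10 weeks and 0.14 in the interaction, gave 0.01 for Bambi at 10 weeks, 0.13 for Eng in the interaction and 0.04 for Tgfbr1 over both ages. Array weights gave 0.01 for Eng in the interaction and 0.00 for Tgfbr1 over both ages. Without the 2 doubted arrays the values were 0.00 for Ltbp1 and -0.01 for Tgfbr1 at 20 weeks, -0.07 for Tgfbr1 over both ages, 0.02 for Eng in the interaction, and, for age, -0.05 for Bambi, -0.03 for Eng and 0.02 for Tgfbr1. With the Gapdh ratio as a covariate they were -0.06 for Bambi, -0.04 for Eng and 0.02 for Tgfbr1 for age, and 0.01 for Tgfbr1 over both ages. With 1 array left out at a time the ranges that crossed 0 were -0.13 to 0.03 for Ltbp1 and -0.01 to 0.18 for Tgfbr1 at 20 weeks, -0.00 to 0.13 for Tgfbr3 at 10 weeks and -0.06 to 0.04 for Tgfbr1 over both ages. In the interaction they were -0.77 to 0.02 for Tgfbr3, -0.14 to 0.07 for Eng and -0.25 to 0.46 for Tgfb2. For age they were -0.01 to 0.18 for Ltbp1, -0.05 to 0.11 for Bambi, -0.04 to 0.08 for Eng, -0.19 to 0.02 for Tgfbr1 and -0.04 to 0.66 for Tgfb2. Ranges that kept their sign but moved widely were 0.03 to 0.82 at 20 weeks and 0.04 to 0.43 over both ages for Tgfbr3, and 0.20 to 0.91 at 10 weeks and 0.22 to 0.64 at 20 weeks for Tgfb2.

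Over all probe sets, 57 were called at 10 weeks, against 7 without the trend, 9 with only 2 groups fitted, 10 without the doubted arrays and 5 to 115 with 1 array left out. At 20 weeks 529 were called, against 191, 309, 331 and 194 to 520 in the same settings. Over both ages 833 were called, against 502 without the trend, 490 without the doubted arrays and 525 to 823 with 1 array left out. The interaction gave 0 calls, 3 with the covariate and 0 to 2 with 1 array left out, and age 0, 1 with median scaling and 0 to 9 with 1 array left out.

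The samples share only a replicate number: same-numbered samples correlated at -0.151 to 0.149 in their deviations (18 pairs) and others at -0.195 to 0.247 (36 pairs). With the replicate number as a block 0 members were called in each of the 5 comparisons, 32, 431, 0, 0 and 728 probe sets were called in all for 10 weeks, 20 weeks, the interaction, age and both ages, and Tgfb3 gave -0.67 over both ages (adjusted p = 0.0985).

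With 3 arrays a group, the median SE over all probe sets was 0.18 at each age, so small differences were below what the arrays can show. Dim probe sets (Tgfb1, and the second ones of Tgfb2, Tgfbr1 and Tgfbr3) have wide errors, and Tgfbr2 was not analysed here.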
